A study of Ambystoma mexicanum with 5 samples.

Results

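Carnitine is the small carrier molecule that takes long-chain fatty acids into mitochondria to be burned. Cells make it from trimethyllysine, a modified amino acid released when proteins are broken down, through a short chain of enzymes, and they also take it up from outside through the carrier SLC22A5. Inside the cell, CPT1A on the outer mitochondrial membrane joins a fatty acid to carnitine, the carrier SLC25A20 moves the product across the inner membrane, and CPT2 hands the fatty acid back to coenzyme A. In mammals the kidney's proximal tubule reabsorbs filtered carnitine and draws much of its energy from fatty acids.

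The carnitine genes described here are TMLHE, BBOX1 and ALDH9A1 (synthesis), SLC22A5 (uptake), CPT1A, SLC25A20 and CPT2 (the shuttle), and CRAT and CROT (acyltransferases for shorter chains). They were found by their symbols in the deposited gene table, which held 23 gene models with these 9 symbols among 100758 gene models in all. TMLHE was selected on its counts, for its large fall after gentamicin in this same comparison, so its change is described here without a test. The other 8 symbols stood for steps of the same pathway, listed with earlier results of these data known. BBOX1 and ALDH9A1 had 1 gene model each, and the other 7 symbols had between 2 and 6. Of the 23 models, 19 had enough reads to be tested. Of the 4 that did not, one CPT2 model (AMEX60DD019581) and one CRAT model (AMEX60DD050328) had 0 counts in every library, a CROT model (AMEX60DDU001026125) had 1 count in all, and a CPT1A model (AMEX60DDU001000195) had 5, 4 and 0 counts in the controls and 4 and 1 after gentamicin.

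The libraries came from kidneys of 5 axolotls (Ambystoma mexicanum), 1 library per animal: 3 untreated controls and 2 animals injured with gentamicin, an aminoglycoside antibiotic toxic to proximal tubule cells. The labels number the controls 1, 2 and 3 and the gentamicin animals 1 and 3. Strain, age, dose and time after injury are not used here. The study is about regeneration of the kidney, and its design sets injured animals against untreated ones.

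The libraries held between 13674201 and 16404879 counts. Levels below are CPM (counts relative to the library total, scaled with TMM, a normalization between libraries) when 1 gene model is compared across libraries, and FPKM (the same kind of value per length of the gene model, as deposited by the authors) when gene models are compared with each other. A library without any count of a gene could still hold 3, which is between 0.183 and 0.219 CPM before TMM scaling. Of 22006 genes tested with edgeR's quasi-likelihood test, 2931 were higher and 2959 lower after gentamicin at a Benjamini-Hochberg adjusted p under 0.05. Changes are relative to the TMM scale: with total counts as the scale, the median of all genes shifted by 0.32 on the log2 scale, and 6192 genes were then higher and 1895 lower.

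The carnitine genes were measured in whole kidneys in which marker genes of several cell types moved between the groups. All 24 tested gene models of the proximal tubule marker list were lower after gentamicin, and the list's summed level went from between 10049 and 12238 CPM in controls to 814.3 and 851.4 CPM. LRP2, or megalin, which takes up filtered proteins, was 15.8-fold lower (log2 fold change -3.98 ± 0.22, SE; edgeR adjusted p = 1.04e-05). Of 11 tested macrophage models 9 were higher, and their list summed to between 144.4 and 212.7 CPM in controls and to 1827 and 1578 CPM after gentamicin, with CD163 at 0 in every library. CSF1R, the receptor for the macrophage growth factor, was 5.76-fold higher (edgeR adjusted p = 2.17e-05). The part of these shifts in the results below was not tested, and in bulk tissue fewer cells of a type and less RNA per cell cannot be told apart. Of 12 endothelial models none was called, nor was either tested model of skeletal muscle, whose list summed to between 3.57 and 8.79 CPM in all 5 libraries. Over all genes tested, 13.4% were called lower and 13.3% higher.

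In untreated kidneys ALDH9A1 and one model of TMLHE, both enzymes of synthesis, had the highest levels of the carnitine gene models. ALDH9A1, the dehydrogenase of the third step, led with 164.7, 146.7 and 136.1 FPKM in controls 1, 2 and 3 (149.2 ± 14.5, SD, n = 3). The TMLHE model AMEX60DD022858 followed with 77.7, 95.5 and 68.9 FPKM (80.7 ± 13.6), below every ALDH9A1 value. After these came both SLC25A20 models at 35 ± 4.88 and 32.9 ± 3.32 FPKM, whose values overlapped, and then BBOX1, the enzyme of the last step, at 21.6 ± 4.76. The models ranked from the fifth to the seventeenth lay between 21.6 and 5.42 FPKM, and each overlapped its neighbour in that order. At the low end stood the CRAT model AMEX60DD050327 at 2.59 ± 0.383 FPKM and the CPT1A model AMEX60DDU001000192 at 1.65 ± 0.00801 FPKM, each apart from the model before it. Of the 18 steps in the order of 19 models, 5 were between models without overlap among the controls.

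**Figure D1:**
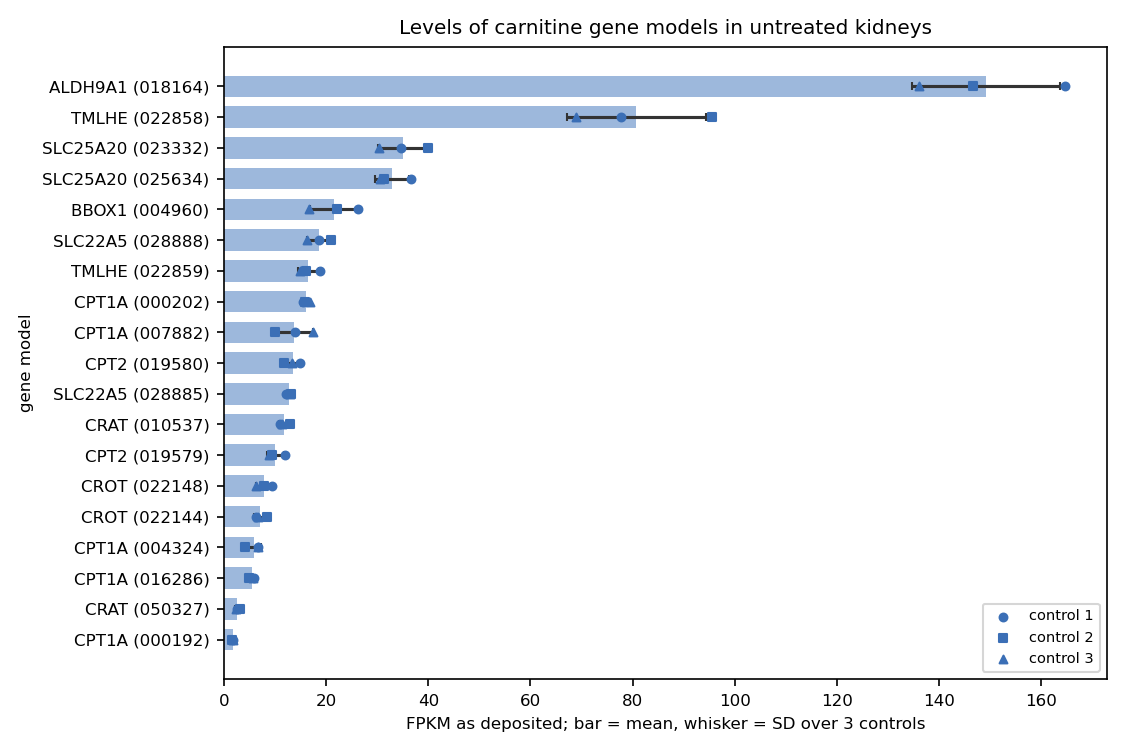
Mean FPKM (bars) and SD (whiskers) of each tested carnitine gene model over the 3 control libraries, with each library as a point. ALDH9A1 and the TMLHE model AMEX60DD022858 stood above every other model, at 149.2 and 80.7 FPKM on average, and 6 models were under 10 FPKM.

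Summed by role, the 4 models of the synthesis enzymes stood at 287.3, 280.3 and 236.5 FPKM in controls and at 38.6 and 35.9 FPKM after gentamicin. The shuttle of CPT1A, SLC25A20 and CPT2 summed to 142.7, 129.8 and 131.1 FPKM and to 88.7 and 81.7 FPKM. The SLC22A5 models went from between 29.2 and 34 FPKM to 9.95 and 10.7 FPKM. The control mean was 7.2 times the gentamicin mean for synthesis, 3.03 times for the uptake carrier, 1.58 times for the shuttle and 1.34 times for CRAT with CROT, and the groups did not overlap in any of these sums. The synthesis sum contains TMLHE, which was chosen for its fall.

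TMLHE, trimethyllysine dioxygenase, carries out the first step of synthesis inside mitochondria, using iron and 2-oxoglutarate. Its symbol was on 2 gene models that lie 392.3 kb apart on opposite strands of chromosome 2p in the deposited annotation. AMEX60DD022858 (1345598628 to 1345709575, minus strand) has 7279 bases of gene model. AMEX60DD022859 (1346101919 to 1346401748, plus strand) has 29890 bases. Both are described there as mitochondrial trimethyllysine dioxygenase. No sequence of either was used here, so reads that both could share are not separated, and neither overlaps another gene model.

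The model AMEX60DD022858 had 7064, 9774 and 7142 counts in the controls and 46 and 8 after gentamicin. That is 575, 710.7 and 516 CPM against 2.74 and 0.416 CPM, and of the gentamicin libraries the second was near the detection limit. The ratio of the group fit was 391.3-fold, a log2 fold change of -8.61, and it was -10.46 without gentamicin 1 and -7.77 without gentamicin 3. Of the 266 genes at or above its mean control CPM, itself included, none had a larger fall, and of all 22006 genes tested 12 did. Among the 12 was LOC109137026, at a similar level with 680.9, 606.1 and 474.1 CPM in controls and a log2 fold change of -8.65. TMLHE was chosen for its fall, so its rank is no separate result. The gentamicin libraries were not alike for this model: gentamicin 1 was 6.58 times gentamicin 3 (95% Clopper-Pearson interval 3.07 to 16.1, covering counting error only).

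The model AMEX60DD022859 had 570.3, 489.8 and 454.4 CPM in controls and 54.3 and 59.1 CPM after gentamicin, or 8.9-fold less (log2 fold change -3.15). Here the gentamicin libraries lay close together. Within each library the FPKM of AMEX60DD022858 was 4.14, 5.96 and 4.66 times that of AMEX60DD022859 in controls, and 0.207 and 0.0289 times after gentamicin. The order of both models was therefore turned around, and a ratio within a library does not depend on how libraries are scaled. With 3 and 2 libraries an exact permutation test of such a ratio cannot go below p = 0.1 (one-sided), and none was run.

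Set against LRP2 in the same library, the models of TMLHE parted. AMEX60DD022858 had 0.797, 0.898 and 0.989 times the FPKM of LRP2 in controls and 0.0681 and 0.00912 times after gentamicin. AMEX60DD022859 had 0.193, 0.151 and 0.212 times in controls and 0.329 and 0.315 times after gentamicin. Relative to megalin, one model was lower after gentamicin than in any control and the other was higher. Of the 24 proximal tubule marker models none had a lower log2 fold change than AMEX60DD022858, and their range was -7.39 to -1.09. TMLHE was chosen for its fall in these counts, so its place against LRP2 and the markers follows in part from that choice. A fall beyond that of the markers was not tested.

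Genes next to TMLHE on chromosome 2p had smaller changes. DKC1, a component of the enzyme complex that modifies uridines in RNA, stood at 93.9, 73.8 and 133.8 CPM in controls and at 138.4 and 125.4 CPM after gentamicin (edgeR adjusted p = 0.28). MPP1, a membrane scaffold protein, fell 2.02-fold (edgeR adjusted p = 7.03e-04). SPRY3 and GPR34, the nearest named genes before and after, were at or under 2.24 CPM in every library.

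The genes whose pattern over the 5 libraries was nearest to that of TMLHE were sought by Euclidean distance of centred log2 CPM, among genes with a symbol and a similar mean level. For AMEX60DD022858, out of 4646 candidates, these were LOC109137026 (distance 1.31), SLCO1A2 (2.44), CYP2C19 (3.57), METTL7A (3.63) and ADH1C (3.8). For AMEX60DD022859, out of 1078 candidates, they were GSTZ1 (0.12), FOXRED1 (0.25), LOC115459261 (0.28), EHHADH (0.33) and ARSD (0.34). The first set lay farther away, and SLCO1A2, for example, had 600.1, 414.0 and 309.2 CPM in controls and 4.88 and 2.29 CPM after gentamicin. Such a distance rests largely on the size of the fall, for which TMLHE was chosen, so these genes are no separate result. For AMEX60DD022858 it also rests on 46 and 8 counts after gentamicin.

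Among the carnitine genes other than TMLHE, 17 gene models were tested. Of these, 7 were called lower (background 13.4% of genes tested) and 1 was called higher (background 13.3%). CPM did not overlap between the groups in 11 of the 17, against 55.3% of all genes tested. The median log2 fold change was -0.63, against 0.01 over all genes tested. The 7 lower calls were found in each of the 16 alternative settings, and the 9 models not called were not called in any of them.

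**Figure D2:**
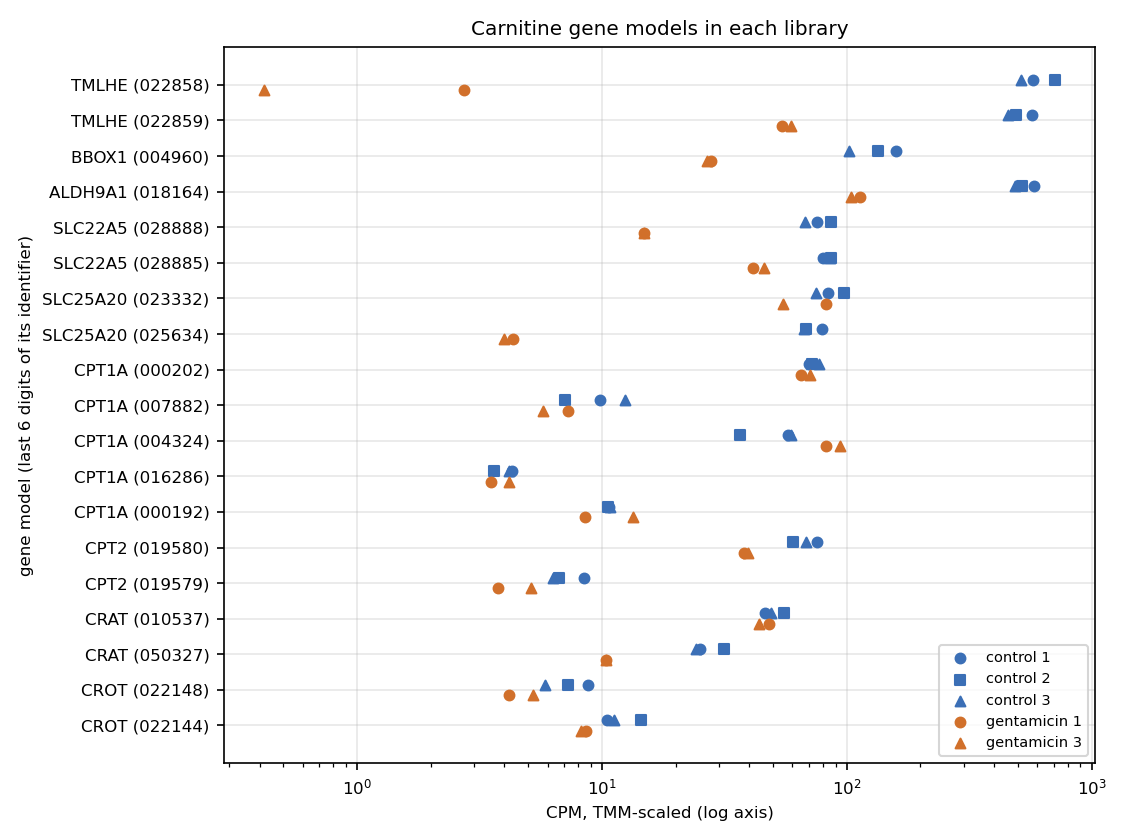
CPM on a log axis for the 19 tested carnitine gene models, 1 point per library, with controls in blue and gentamicin libraries in orange. The TMLHE model AMEX60DD022858 goes from at least 516 CPM to at most 2.74 CPM, and the CPT1A model AMEX60DD004324 is the called model that lies to the right of its controls.

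Both later enzymes of synthesis on the list fell. ALDH9A1, which oxidizes trimethylaminobutyraldehyde, had 582.9, 521.4 and 487.2 CPM in controls and 113.1 and 104.3 CPM after gentamicin. It was 4.88-fold lower (log2 fold change -2.29 ± 0.14, SE; edgeR adjusted p = 1.34e-05) and lies on chromosome 1q, 541491096 to 542427246. It has 6 neighbours shared with the gene of that name in RefSeq's annotation of another axolotl assembly. For this, 5 named genes per side were looked for in a wider window of RefSeq genes. BBOX1, gamma-butyrobetaine dioxygenase, which makes carnitine itself, had 158.3, 134.1 and 102.0 CPM in controls and 27.9 and 26.8 CPM after gentamicin. It was 4.8-fold lower (-2.26 ± 0.20; edgeR adjusted p = 1.22e-04; chromosome 11q, 466153126 to 466636656, 5 neighbours shared). In neither gene did the groups overlap. The ratio of BBOX1 to ALDH9A1 in FPKM was between 0.122 and 0.159 in controls and 0.144 and 0.15 after gentamicin, so this ratio overlapped between the groups. The FPKM of ALDH9A1 was 1.69, 1.38 and 1.95 times that of LRP2 in controls and 5.89 and 4.78 times after gentamicin. This direction depends on the marker chosen, because the proximal tubule models had log2 fold changes from -7.39 to -1.09.

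The second step of synthesis has been ascribed to serine hydroxymethyltransferases, which mainly serve one-carbon metabolism. SHMT1 fell 1.96-fold from a mean of 234.1 CPM (edgeR adjusted p = 4.01e-04) and SHMT2 2.03-fold from 138.0 CPM (edgeR adjusted p = 8.40e-04).

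SLC22A5, the sodium-coupled carnitine carrier also called OCTN2, had 2 models on chromosome 3q with a gap of 469.7 kb between them, which holds a model named SLC22A4. AMEX60DD028888 had 75.9, 86.5 and 67.8 CPM in controls and 14.9 CPM in each gentamicin library, 5.14-fold lower (log2 fold change -2.36 ± 0.15; edgeR adjusted p = 1.67e-05). AMEX60DD028885 had 79.7, 86.0 and 85.2 CPM in controls and 41.6 and 46.0 CPM after gentamicin, 1.91-fold lower (-0.93 ± 0.11; edgeR adjusted p = 6.40e-04). Both therefore fell without overlap between groups. The FPKM of the first was 1.52, 1.6 and 1.26 times that of the second in controls and 0.57 and 0.516 times after gentamicin. The order of the models thus changed per length of the gene model. In CPM the first was already below the second in controls 1 and 3. The SLC22A4 model between them, named for a related carrier of ergothioneine, fell 6.7-fold from a mean of 13.7 CPM to 3.03 and 1.09 CPM (edgeR adjusted p = 0.00223). Its log2 fold change was -2.74, and -3.64 without gentamicin 1 and -2.17 without gentamicin 3. Whether reads were shared among these models was not tested.

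SLC25A20, the carnitine-acylcarnitine carrier of the inner mitochondrial membrane, had 2 models that stood at like levels in controls and apart after gentamicin. AMEX60DD025634, on chromosome 2q from 1157415856 to 1157580372, had 79.4, 68.1 and 67 CPM in controls and 4.34 and 4 CPM after gentamicin. It was 17.1-fold lower (log2 fold change -4.10 ± 0.16; edgeR adjusted p = 2.35e-06), the largest called fall among the carnitine models. AMEX60DD023332, on chromosome 2q from 79592644 to 80076164, had 84.2, 97.9 and 74.6 CPM in controls and 82 and 54.8 CPM after gentamicin, without passing the test (-0.32 ± 0.19; edgeR adjusted p = 0.269).

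The ratio of the first SLC25A20 model to the second was 1.06, 0.784 and 1.01 in controls and 0.0596 and 0.0823 after gentamicin. Set against LRP2, AMEX60DD025634 stood at 0.377, 0.295 and 0.44 in controls and at 0.37 and 0.301 after gentamicin, so that this ratio overlapped between groups. The proximal tubule models had log2 fold changes from -7.39 to -1.09, with a median of -4.16, so whether such a ratio overlaps depends on the marker chosen. Ratios of this model to the other markers were not computed. In the RefSeq annotation, of the UKY_AmexF1_1 assembly, the gene named SLC25A20 has ARIH2, PRKAR2A and IP6K2 among its neighbours, as AMEX60DD023332 has here (7 neighbours shared). AMEX60DD025634 shared none, and lies between RPL10 and TAZ. It overlaps DNASE1L1 on the opposite strand, whose model rose 3.49-fold (edgeR adjusted p = 0.00354), and without a stated strand setting reads of these models cannot be told apart.

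CPT1A, the enzyme that commits long-chain fatty acids to mitochondria and is inhibited by malonyl-CoA, held the called model that rose. AMEX60DD004324, on chromosome 11q from 155877859 to 156578389, had 57.8, 36.6 and 59.3 CPM in controls and 82.3 and 93.8 CPM after gentamicin. It was 1.72-fold higher (log2 fold change 0.78 ± 0.21; edgeR adjusted p = 0.0306), and every gentamicin value lay above every control. The call was lost without gentamicin 1 (edgeR adjusted p = 0.11) or gentamicin 3 (0.197) and in the 3 fits on FPKM (limma adjusted p = 0.0553, 0.0587 and 0.123). This model shares 5 neighbours, among them MRPL21, IGHMBP2 and GAL, with the RefSeq gene named CPT1A.

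Of the 5 tested CPT1A models the others did not pass the test. The most abundant of them, AMEX60DDU001000202 on an unplaced scaffold, had 70.1, 72.1 and 77 CPM in controls and 64.9 and 70.6 CPM after gentamicin (log2 fold change -0.11 ± 0.11; edgeR adjusted p = 0.521). AMEX60DDU001000192 and AMEX60DD016286 had values of 0.04 ± 0.22 and -0.08 ± 0.26 on the same scale (adjusted p = 0.911 and 0.866 by edgeR). The first of these overlaps 3 other gene models, 1 of them with counts, and reads that these could share were not separated. AMEX60DD007882 carries the names CPT1A and CHKB-CPT1B, lies on chromosome 12q among models named CPT1B, and had a log2 fold change of -0.59 ± 0.27 (edgeR adjusted p = 0.156). Summed over its models, CPT1A stood at 44.4, 37.2 and 48.1 FPKM in controls and 40.5 and 42.3 FPKM after gentamicin, values that overlapped. This sum gives weight to short models with few reads: AMEX60DD007882 (696 bases) held 13.7 of a control mean of 43.2 FPKM. AMEX60DD016286 (730 bases) lies next to a model named CPT1C. Both are also part of the shuttle sum. CPT1B, the muscle and heart isoform in mammals, had 2 tested models at means of 8.53 and 7.86 CPM in controls and 6.78 and 5.69 CPM after gentamicin (edgeR adjusted p = 0.262 and 0.141). The second was called in the FPKM fits with a filter on low values (limma adjusted p = 0.0392 and 0.0382).

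CPT2, on the inner membrane, had 75.8, 60.2 and 68.4 CPM in controls and 37.9 and 39.6 CPM after gentamicin in its main model AMEX60DD019580. It was 1.76-fold lower (log2 fold change -0.81 ± 0.13; edgeR adjusted p = 0.00283; chromosome 1q, 1262531157 to 1262619948), and the groups did not overlap. The neighbouring short model AMEX60DD019579 had 8.47, 6.69 and 6.29 CPM in controls and 3.75 and 5.15 CPM after gentamicin (-0.68 ± 0.26; edgeR adjusted p = 0.0906). The FPKM ratio of CPT2 (AMEX60DD019580) to CPT1A (AMEX60DD004324) was 2.27, 2.85 and 2 in controls and 0.799 and 0.733 after gentamicin. CPT2 thus stood above this CPT1A model in each control and below it in each gentamicin library. Against the more abundant CPT1A model AMEX60DDU001000202 the order did not change. That model had 15.5, 15.9 and 16.9 FPKM in controls 1, 2 and 3, where AMEX60DD019580 had 14.9, 11.8 and 13.3 FPKM. After gentamicin the values were 14.3 and 15.6 FPKM for the CPT1A model and 7.45 and 7.81 FPKM for AMEX60DD019580.

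**Figure D3:**
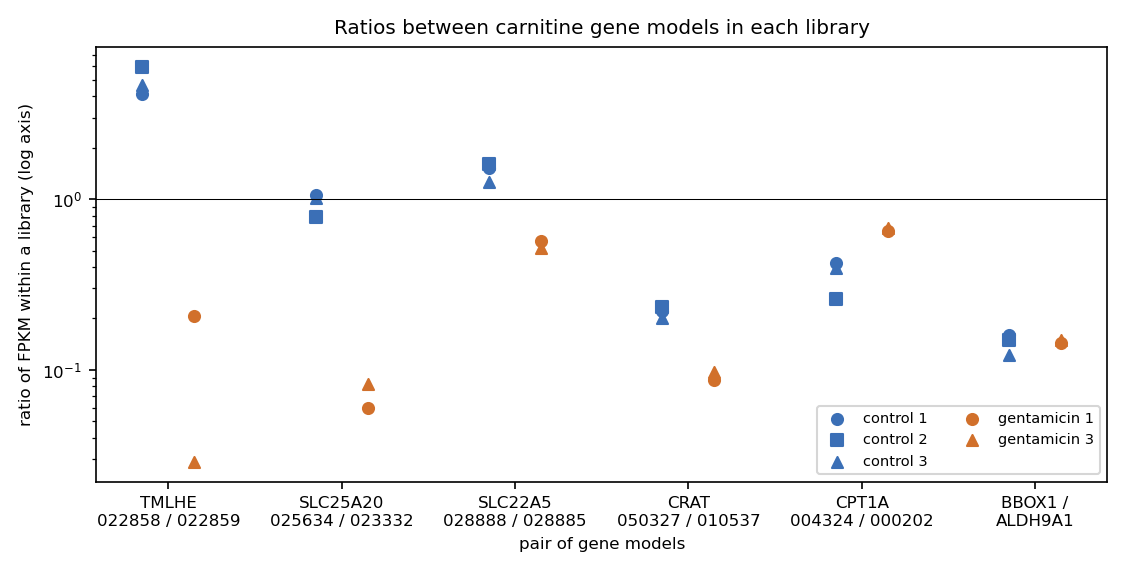
Ratio of FPKM between pairs of gene models within each library, on a log axis, with controls in blue and gentamicin in orange. The ratios of the drawn pairs of TMLHE, SLC25A20, SLC22A5, CRAT and CPT1A models do not overlap between groups. BBOX1 over ALDH9A1 lies between 0.122 and 0.159 in all 5 libraries. The pairs were chosen with earlier results of these data known, and other pairs were not drawn, such as those within CPT2 or within CROT. How often such ratios part over all genes was not tested.

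CRAT, which moves acetyl groups between coenzyme A and carnitine, had 2 tested models. AMEX60DD050327 on chromosome 8p (26864739 to 27232573) had 25.2, 31.6 and 24.3 CPM in controls and 10.4 CPM in each gentamicin library. It fell 2.61-fold (log2 fold change -1.38 ± 0.17; edgeR adjusted p = 5.75e-04) and shares 6 neighbours with the RefSeq gene named CRAT. AMEX60DD010537 on chromosome 13q, the more abundant model, had 46.3, 55.2 and 48.9 CPM in controls and 48.1 and 43.7 CPM after gentamicin (-0.13 ± 0.13; edgeR adjusted p = 0.503), and shares none. In controls AMEX60DD050327 had 0.202 to 0.233 times the FPKM of AMEX60DD010537, and after gentamicin 0.0878 and 0.0966 times. AMEX60DD050327 overlaps 2 other gene models, 1 of them with counts, and reads that these could share were not separated.

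CROT, the peroxisomal enzyme that puts medium-chain fatty acids on carnitine, had 2 tested models near each other on chromosome 2p, both with 9 neighbours shared with RefSeq's CROT. AMEX60DD022144 had 10.5, 14.4 and 11.2 CPM in controls and 8.63 and 8.22 CPM after gentamicin (log2 fold change -0.52 ± 0.20; edgeR adjusted p = 0.0973). AMEX60DD022148 had 8.79, 7.27 and 5.85 CPM in controls and 4.16 and 5.25 CPM after gentamicin (-0.63 ± 0.26; edgeR adjusted p = 0.114). In both the gentamicin values lay below every control without passing the test.

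Of the related isoforms and carriers, 13 models were tested, of which 7 were lower and none higher (background 13.4% and 13.3% of genes tested). The median log2 fold change was -0.97. SLC16A9, a carrier through which carnitine can leave cells in humans, is named on a model that also carries the name ANK3 and fell 14.5-fold from a mean of 408.9 to 28.1 CPM (edgeR adjusted p = 5.29e-06). SLC25A48, a mitochondrial carrier linked to choline, fell 13-fold from 180.7 CPM (edgeR adjusted p = 5.00e-06). SLC6A14, an amino acid carrier that also accepts carnitine, fell 2.77-fold in its abundant model AMEX60DD037532 (edgeR adjusted p = 0.00627). Its adjusted p was 0.0559 when gentamicin 1 was left out and 0.0768 when gentamicin 3 was. SLC22A16, a carnitine carrier of the testis in mammals, had 84 counts in the controls and 3 after gentamicin, a CPM ratio of 25.3 (95% Clopper-Pearson counting interval 8.37 to 125.2; edgeR adjusted p = 0.0059). Its fitted log2 fold change of -4.55 was -3.68 without gentamicin 1 and -7.90 without gentamicin 3, where the remaining gentamicin library had 0 counts, so that the latter is no bound. The models of SLC25A29, SLC22A15 and the other SLC6A14 models did not pass the test, with log2 fold changes between -0.57 and 0.35.

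Most models of the list of mitochondrial beta-oxidation were lower too. Besides enzymes that burn fatty acids, this list holds IVD, ACAD8, ACADSB and HIBCH, which act mainly in amino acid breakdown. Of 24 tested models of mitochondrial beta-oxidation 22 were lower and none higher (background 13.4% and 13.3% of genes tested). Their median log2 fold change was -0.80. ACAA2, the thiolase that releases acetyl-CoA, fell 4.28-fold from a mean of 531.6 CPM (edgeR adjusted p = 1.87e-05) and the ECHS1 model AMEX60DD052297, of the enzyme that hydrates the chain, 3.69-fold from 466.0 CPM (edgeR adjusted p = 7.22e-05). The other ECHS1 model, AMEX60DD038340, had a log2 fold change of 0.06 (edgeR adjusted p = 0.782). HADHA, of the trifunctional protein for long chains, fell 1.58-fold (edgeR adjusted p = 0.00492), a call lost with total-count scaling (0.0661).

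In peroxisomes, where very long chains are shortened, 18 of 22 tested models were lower and none higher, with a median of -1.67. The background was 13.4% lower and 13.3% higher of genes tested. The catalase models of CAT fell 9.96-fold from a mean of 3092 CPM and 5.32-fold from 1075 CPM (edgeR adjusted p = 2.13e-05 and 1.99e-05). EHHADH, the bifunctional enzyme, fell 10.7-fold and a model of PECR, a reductase, 14-fold from 47.5 CPM (edgeR adjusted p = 1.11e-05 and 4.68e-05). The more abundant PECR model, AMEX60DD056205, fell 3.46-fold from 68.1 CPM (edgeR adjusted p = 4.11e-04).

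Of 18 models of fatty acid uptake and activation 8 were lower and 2 higher (background 13.4% and 13.3% of genes tested). Their median was -0.63. SLC27A2, a transporter that also activates fatty acids, fell 12.6-fold from 255.0 CPM in its more abundant model (edgeR adjusted p = 4.74e-06) and 4.37-fold in the other (4.08e-04). FABP1, a fatty acid binding protein, fell 11.4-fold from 12.2 CPM (edgeR adjusted p = 7.45e-04). DBI, the acyl-CoA binding protein, stood at means of 213.5 and 196.0 CPM (edgeR adjusted p = 0.569). The 2 higher models, named after their values were seen, were ACSL4, which activates polyunsaturated fatty acids (1.35-fold, edgeR adjusted p = 0.0291), and the FABP7 model AMEX60DD005433 (1.38-fold, 0.0289). The other FABP7 model, AMEX60DD034100, was called lower (2.55-fold, edgeR adjusted p = 0.0359).

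Of 29 tested models of malonyl-CoA enzymes and transcriptional regulators 11 were lower, 1 was higher and 17 did not pass the test. Their median was -0.33, and the background was 13.4% lower and 13.3% higher of genes tested. HNF4A, a transcription factor of proximal tubule and liver, fell 10.8-fold from 81.5 CPM (edgeR adjusted p = 4.86e-06) and the KLF15 model AMEX60DD023451 fell 4.56-fold (edgeR adjusted p = 0.00229). The other KLF15 model, AMEX60DD009024, had a log2 fold change of 0.33 (edgeR adjusted p = 0.446). ACACA, which makes malonyl-CoA, fell 2.52-fold in its main model (edgeR adjusted p = 0.00273), and MLYCD, which removes it, 2.57-fold (edgeR adjusted p = 1.99e-04). FASN, which uses malonyl-CoA to build fatty acids, fell 2.74-fold (edgeR adjusted p = 4.28e-04).

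PPARA, the nuclear receptor that switches on CPT1A and beta-oxidation genes in mammals, was 1.54-fold lower from a mean of 13.2 CPM (edgeR adjusted p = 0.0315), a call lost in 9 of the 16 alternative settings, among them without control 2 (0.077), control 3 (0.0588), gentamicin 1 (0.142) or gentamicin 3 (0.179) and in the fit blocked on the label number (0.121). Its coactivator PPARGC1A stood at 41.9 and 32.4 CPM (edgeR adjusted p = 0.129). A weak second ACACA model (4.14 CPM in controls) passed at 0.0487 by edgeR and lost its call in 8 settings, among them without control 1 (0.0932), control 3 (0.0906), gentamicin 1 (0.265) or gentamicin 3 (0.142) and with the block (0.0706). The tested ACACB models were at means of at most 1.56 CPM in both groups (edgeR adjusted p = 0.875 and 0.516). PRKAG2, a subunit of AMP-activated kinase, stood at means of 59.6 and 49.3 CPM (edgeR adjusted p = 0.263), and the model called higher, named after its value was seen, was PRKAG1, another subunit (1.51-fold, edgeR adjusted p = 0.00999).

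Of 14 models for the fate of acetyl-CoA 9 were lower (background 13.4% of genes tested), with a median of -0.72. CS, citrate synthase, fell 1.51-fold from 683.9 CPM (edgeR adjusted p = 0.00538), a call lost with total-count scaling (0.0747), and the most abundant ACSS1 model, of an acetyl-CoA synthetase, 1.63-fold (edgeR adjusted p = 0.00253). The BDH1 model AMEX60DD001701, of ketone metabolism, fell 4.48-fold (edgeR adjusted p = 1.63e-05). The more abundant BDH1 model AMEX60DD001700, which overlaps it on the opposite strand, fell 1.89-fold from 74.7 CPM (edgeR adjusted p = 0.00276). A further BDH1 model, AMEX60DD035755, had a log2 fold change of 0.18 (edgeR adjusted p = 0.495).

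**Figure D4:**
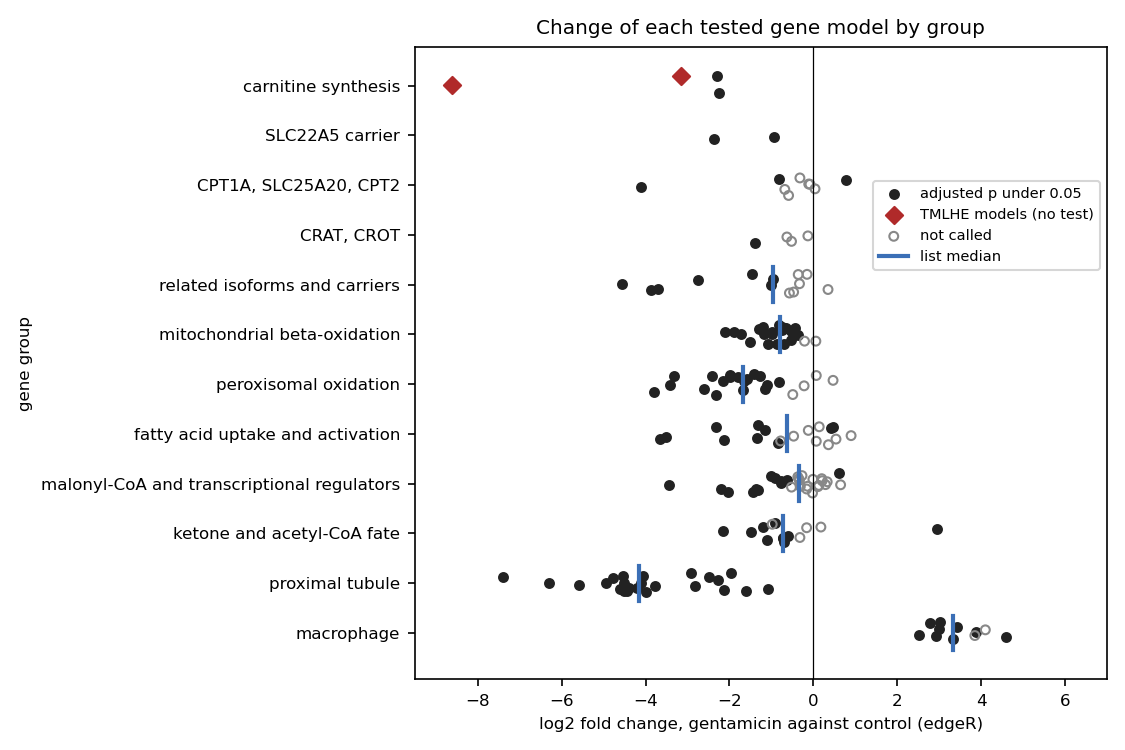
Log2 fold change of each tested gene model, gentamicin against control, by gene group; filled points had an edgeR adjusted p under 0.05, open points did not, diamonds are the TMLHE models (no test) and blue lines are list medians. The TMLHE models lie at -8.61 and -3.15, the peroxisomal median at -1.67 and the mitochondrial median at -0.80, beside -4.16 for proximal tubule and 3.34 for macrophage markers.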

How the data were processed

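TRIzol extraction was followed by an NEBNext Ultra library kit, per the labels' protocols. Tools listed in the submitters' processing notes are CASAVA 2.19, fastp, HISAT2 2.0.5, featureCounts 1.5.0-p3 and DESeq2 1.20.0; build and strand setting were not found in the labels or headers used here, so reads of overlapping genes on opposite strands cannot be told apart. The deposited tables have exchanged names: the table of read counts deposited by the authors is named for FPKM (100% of its values are whole), and the other table holds the FPKM deposited by the authors, equal to count over length and library total times 1 factor per library (0.8387 to 1.0943). Coordinates are those of the deposited tables.

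Symbols were matched after splitting names at the bar, with every gene model kept as its own row. Of the 9 symbols 6 had an entry in RefSeq (assembly UKY_AmexF1_1), used for the order of neighbouring genes. TMLHE, SLC22A5 and CPT2 had none, so the neighbours of their models were not compared. The 5 nearest named genes per side in the deposited annotation were looked for within 10 protein-coding genes on either side in RefSeq. Counts were fitted with edgeR 4.0.16 in R 4.3.3: filterByExpr (minimum count 10, minimum total 15), TMM scaling, a robust quasi-likelihood model with group as its term, glmQLFTest (two-sided) and Benjamini-Hochberg adjustment over 22006 genes. The SE is the log2 fold change over the root of F. The members, lists and tests were chosen with earlier results of these data known. Named genes were all models of the 9 symbols and of the related carriers, in each other list the 2 most abundant in controls and the 2 with the largest called change, LRP2, CSF1R, ACACA, MLYCD, ACACB, PPARA, PPARGC1A and CPT1B, and the 5 genes nearest to each TMLHE model in log2 CPM (prior count 2), within 1 of its mean. One gene that this rule names is not reported here. Each library came from another axolotl. No pair of libraries was identical (chi-square per degree of freedom 14.3 to 20.4 within groups). The other marker lists gave 9 lower and 1 higher of 18 tested models for the distal nephron, 1 and 2 of 10 for podocytes, 1 and 2 of 5 for erythroid cells, 5 and 0 of 10 for liver and 2 and 1 of 3 for adipocytes. The background for these counts was 13.4% lower and 13.3% higher of genes tested. Alternatives were DESeq2 1.42.0, limma 3.58.1 (voom, and log2(FPKM + 1) or log2(FPKM + 0.1) filtered at a mean FPKM of 0.5 or unfiltered), other scalings, other filters, the label number as a block, and each library left out. The procedure was tested on simulated data.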

Additional observations from a re-analysis of the deposited data

How the results depend on the processing

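The counts over all genes moved by more than 1.5 times under some settings, among them both fits with 1 gentamicin library left out. With total-count scaling 6192 genes were higher and 1895 lower, and with limma on log2(FPKM + 1) without a filter 1796 and 1828. Leaving out 1 library gave 1333 to 2770 higher and 1627 to 2963 lower genes, lowest without gentamicin 1 (1333 higher) and gentamicin 3 (1627 lower). The number of carnitine models called lower was 7 in each of the 16 settings; the number called higher was 1 in 11 of them and 0 without gentamicin 1, without gentamicin 3 and in the 3 FPKM fits (leaving out 1 library gave 0 to 1). Counts of carnitine calls in this paragraph leave out TMLHE. No call on a carnitine model changed direction. With the replicate block, 2118 genes were higher and 2367 lower, and the carnitine calls were 1 and 7. The labels do not state that the numbers mark pairs, so they were not taken as pairs. Libraries with the same number correlated at -0.04 and 0.06 in their deviations from the group means. With 2 gentamicin libraries their deviations mirror each other, so these correlations cannot decide whether the libraries were paired. The log2 fold change of the TMLHE model AMEX60DD022858 was between -10.46 (without gentamicin 1) and -6.07 (limma on log2(FPKM + 1)), and that of AMEX60DD022859 between -3.25 and -2.61. Of 38 other named models 27 were called, 21 of them in every setting. Depth limits AMEX60DD022858 after gentamicin (46 and 8 counts) and SLC22A16 (3 counts).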
